A study of Mus musculus with 8 samples.

Results

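The mouse potassium channel genes were examined in brain cortexes of mice on a normal or a high fat diet (HFD). They were taken as the protein-coding genes of the expression values whose symbol starts with Kcn, leaving out Kcnj8 and Kcnj13, which gave 70 genes of 13996, of which 12531 are mRNAs. By symbol they form 6 classes, with 25 pore-forming voltage-gated subunits, 9 silent voltage-gated subunits, 9 accessory subunits of voltage-gated channels, 9 inward rectifiers, 9 K2P (leak) channels and 9 genes of the calcium-activated group, which here also holds the sodium-activated Kcnt1 and Kcnt2 and their relative Kcnu1. Both diet groups were male C57BL/6 mice, with no allele named in the labels, killed under ether at 16 weeks of age. One group of 4 ate conventional food and the other 4 ate food with 60% fat during the last 8 weeks, and 1 library was made from the rRNA-depleted total RNA of each cortex. Values are FPKM, fragment counts scaled to transcript length and library size, so levels are per length, and were rounded to 0.1. Read numbers per gene are therefore unknown.

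Potassium channels let potassium leave or enter a cell along its gradient and so set the resting potential and the shape and rate of action potentials. Voltage-gated channels repolarize the membrane, inward rectifiers and K2P channels hold it near rest, and calcium-activated channels follow calcium entry during firing. A voltage-gated channel is built from several pore-forming subunits, silent subunits join other pore-forming subunits without opening on their own, and accessory subunits change its gating or its transport to the membrane. In the cortex most of these genes are used by neurons, whereas Kcnj10 is a channel of astrocytes and oligodendrocytes.

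Diets were compared on log2(FPKM + 0.1) by limma's two-sided test, adjusted over 13982 genes by the Benjamini-Hochberg method. The log2 fold change (log2FC) is HFD minus normal on that scale, with its standard error (SE) from limma, and is an underestimate for genes of low FPKM. All 70 channel genes had a mean FPKM of at least 1 over the 8 mice and no value of 0, so all were tested, and in 3 of them (Kcna5, Kcnd1 and Kcnk6) the mean of a diet lay under 1. A change was called at an adjusted p below 0.05. By that rule 26 channel genes (37.1%) changed, beside 33.2% of the mRNAs tested. By class the share was 36% of pore-forming, 55.6% of silent and 44.4% of accessory voltage-gated genes. It was 44.4% of inward rectifiers and 22.2% of both K2P and calcium-activated genes. In HFD mice 18 of the channel genes (25.7%) were higher, where 16.5% of mRNAs were, and 8 (11.4%) were lower, where 16.8% of mRNAs were. The change exceeded 50% for 7 of them (10%, and 5.7% of mRNAs), namely Kcnc4, Kcnd3, Kcna5, Kcng1, Kcng3, Kcng4 and Kcnj10. The values of the diets did not overlap for 23 channel genes (32.9%), and for 32.5% of mRNAs. The median log2FC was 0.070 over the channel genes and -0.014 over the mRNAs tested. Over all 70 channel genes the shares called in either direction and without overlap were near those of all mRNAs. The share higher was above and the share lower was below them, and the differences in share, also those of the classes, were not tested.

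**Figure D1:**
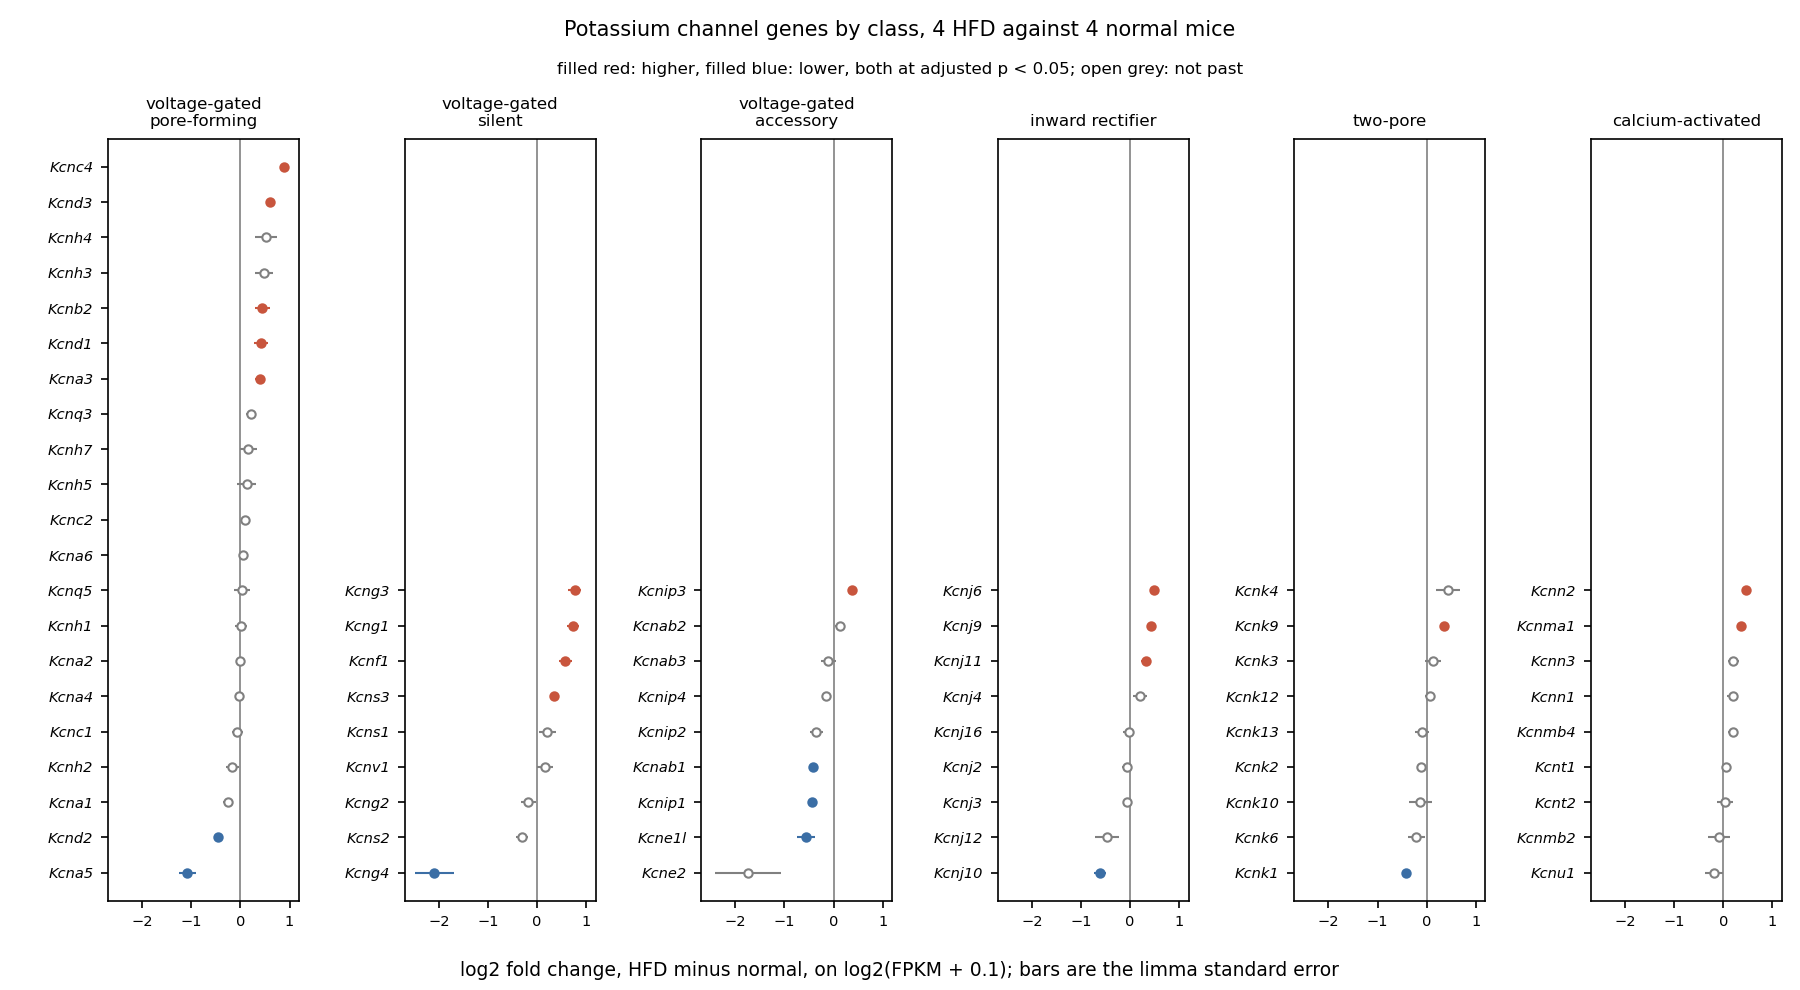
Log2 fold change (HFD minus normal, on log2(FPKM + 0.1)) of 66 channel genes, 1 panel per class, with horizontal bars for limma's standard error, red points for higher, blue points for lower and open points for genes not past the adjusted threshold. The widest bars belong to Kcne2 (-1.75) and Kcng4 (-2.09), and Kcnc4 (0.90) is the highest point.

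The libraries differed in regional and cell type markers. Markers of cortical projection neurons were present in all 8 mice, and 5 of 7 were higher in HFD, with a summed FPKM of 272.3 to 415.2 in normal and 459.5 to 543.3 in HFD mice. All 7 striatal markers tested were lower in HFD (sums of 214.1 to 401.6 and 69.8 to 79.7), as were 4 of 5 cerebellar markers tested. The cerebellar sum was 14.6, 209.8, 289.1 and 62.5 in normal mice 1 to 4 and 10.5 to 13.6 in HFD mice, where Gabra6 was listed at 0 in a mouse. Of 4 thalamic markers tested 2 were lower (22.3 to 85.0 and 18 to 21.1, with Shox2 listed at 0 in a mouse), as were 8 of 8 oligodendrocyte markers (2115 to 3487 and 1458 to 2026). Of the interneuron markers 2 were higher and 4 lower (435.6 to 495.2 and 391.7 to 434.2), and of the astrocyte markers 1 was higher and 2 were lower (1168 to 1308 and 1162 to 1232). Choroid plexus markers summed to 342.3 to 726.9 in normal mice and to 76.5, 20.9, 27.6 and 940 in HFD mice 1 to 4, with 3 of 5 lower. In whole tissue, fewer cells of a type and less RNA per cell cannot be told apart. The sums of the cortical projection neuron, striatal, cerebellar, thalamic and oligodendrocyte markers did not overlap between the groups, so these differences and diet cannot be told apart. The interneuron sums were separate only narrowly (435.6 and 434.2), and their markers went both ways. Pvalb was at 50.1, 140.3, 145.8 and 60.5 in normal mice and at 41.3, 41.1, 55.6 and 33.4 in HFD mice. Gad1, Gad2 and Slc32a1 were also lower in HFD, whereas Vip and Lhx6 were higher. The part of all these markers in the channel results was not tested, except for the fits on the cerebellar markers.

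Promoter sequence is shown for 4 of the 7 channel genes with a change over 50%, Kcnc4 and Kcnd3 with higher and Kcna5 and Kcng4 with lower RNA in HFD. RefSeq promoters (GRCm38.p6) were found for 49 of the 70 genes, and each line gives the 150 bases before the transcription start of that promoter, 5′ to 3′ on the gene's strand, with CG dinucleotides in capitals. These starts can differ from the gene positions given below, and the Kcnc4 stretch lies within the position of its gene. The stretches are chr3:107458899-107459048 (minus strand, Kcnc4), chr3:105451740-105451889 (plus strand, Kcnd3), chr6:126535556-126535705 (minus strand, Kcna5) and chr8:119635681-119635830 (minus strand, Kcng4).
Kcnc4: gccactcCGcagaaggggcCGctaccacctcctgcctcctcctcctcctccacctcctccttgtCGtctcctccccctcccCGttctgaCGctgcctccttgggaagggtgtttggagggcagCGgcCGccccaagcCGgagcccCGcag
Kcnd3: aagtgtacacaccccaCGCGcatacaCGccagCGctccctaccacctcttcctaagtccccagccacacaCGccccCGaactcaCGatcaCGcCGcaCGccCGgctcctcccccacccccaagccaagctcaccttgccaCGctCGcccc
Kcna5: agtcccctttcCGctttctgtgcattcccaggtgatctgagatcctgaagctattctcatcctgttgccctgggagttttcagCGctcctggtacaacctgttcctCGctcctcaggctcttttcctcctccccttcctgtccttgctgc
Kcng4: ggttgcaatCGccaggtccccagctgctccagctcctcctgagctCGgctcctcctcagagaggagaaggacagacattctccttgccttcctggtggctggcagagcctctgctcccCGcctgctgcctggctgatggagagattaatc
The printed stretches hold 9 CG dinucleotides for Kcnc4, 13 for Kcnd3, 3 for Kcna5 and 3 for Kcng4. Of the genes not printed, Kcng3, which was also higher in HFD, had 26 over the same 150 bases, and Kcnj10, which was lower, had 10, more than Kcnc4. Over the full 250 bases before the start, Kcng3 had 41 and Kcnj10 had 17. The motif searched was CG, which reads the same on both strands. Promoters of channel genes with higher RNA in HFD held a median of 15 (14 promoters of 10 genes), those of genes with lower RNA a median of 5 (12 promoters of 8 genes), and those of the other matched channel genes a median of 8. At least 10 were found in 45.2% of the channel gene promoters and in 37.8% of all 32851 promoters of this length. These counts describe the sequence, and no test was made of them.

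Among the pore-forming voltage-gated subunits 9 of 25 changed, 7 higher and 2 lower, and the median log2FC of the class was 0.13. Kcnc4 encodes a Kv3 subunit with fast inactivation, and is located on chromosome 3 from 107438303 to 107459552 (minus strand). Its FPKM was 12.2, 11.5, 11.3 and 13.0 in normal mice and 23.5, 23.7, 21.6 and 20.9 in HFD mice. Every HFD mouse was above every normal mouse, with a narrow spread in both groups. The log2FC was 0.90 (SE 0.06, adjusted p = 0.000126 from limma). Its level therefore moved from 12 ± 0.770 to 22.4 ± 1.39 (SD, n = 4 each). Its relatives Kcnc1 (25.6 ± 3.70 and 24.4 ± 2.30) and Kcnc2 (32.7 ± 1.97 and 34.7 ± 1.16, normal and HFD, SD, n = 4) did not pass the test. Of the summed FPKM of Kcnc1, Kcnc2 and Kcnc4, Kcnc4 made up 15.7% to 18.9% in normal mice and 25.6% to 28.8% in HFD mice.

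The Kv4 genes, which carry the fast transient (A-type) current of neuronal dendrites, changed in opposite directions. Kcnd3 (chromosome 3, 105452330 to 105674002, plus strand) was at 10.6, 13.0, 13.2 and 13.1 in normal mice and at 18.7, 19.0, 17.7 and 20.8 in HFD mice. The groups did not overlap, although normal mouse 1 was below the other normal mice. Its log2FC was 0.61 (SE 0.08, adjusted p = 0.00114 from limma). Kcnd3 shares exonic sequence with Kcnd3os on the opposite strand, whose FPKM was 1.0 to 1.6 in normal and 1.1 to 2.1 in HFD mice. Kcnd2, the most abundant Kv4 gene, was at 37.7, 45.2, 47.1 and 36.6 in normal mice and at 31.2, 29.3, 30.1 and 29.2 in HFD mice. All HFD mice lay below all normal mice, and normal mice 2 and 3 were the highest. The log2FC of Kcnd2 was -0.47 (SE 0.08, adjusted p = 0.00335). Kcnd1 had low levels, 0.8 to 0.9 in normal and 1.1 to 1.3 in HFD mice, and a log2FC of 0.41 (adjusted p = 0.0462) that missed the threshold when any of the 8 mice was left out, with an adjusted p up to 0.115. The summed Kv4 FPKM overlapped between diets (49.1 to 61.2 and 49.0 to 51.1). Within that sum the share of Kcnd2 was 72.3% to 77.0% in normal and 57.1% to 61.4% in HFD mice, and the share of Kcnd3 was 21.6% to 25.9% and 36.1% to 40.7%. The shares of both genes were thus separate between the diets while the sum was not.

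**Figure D2:**
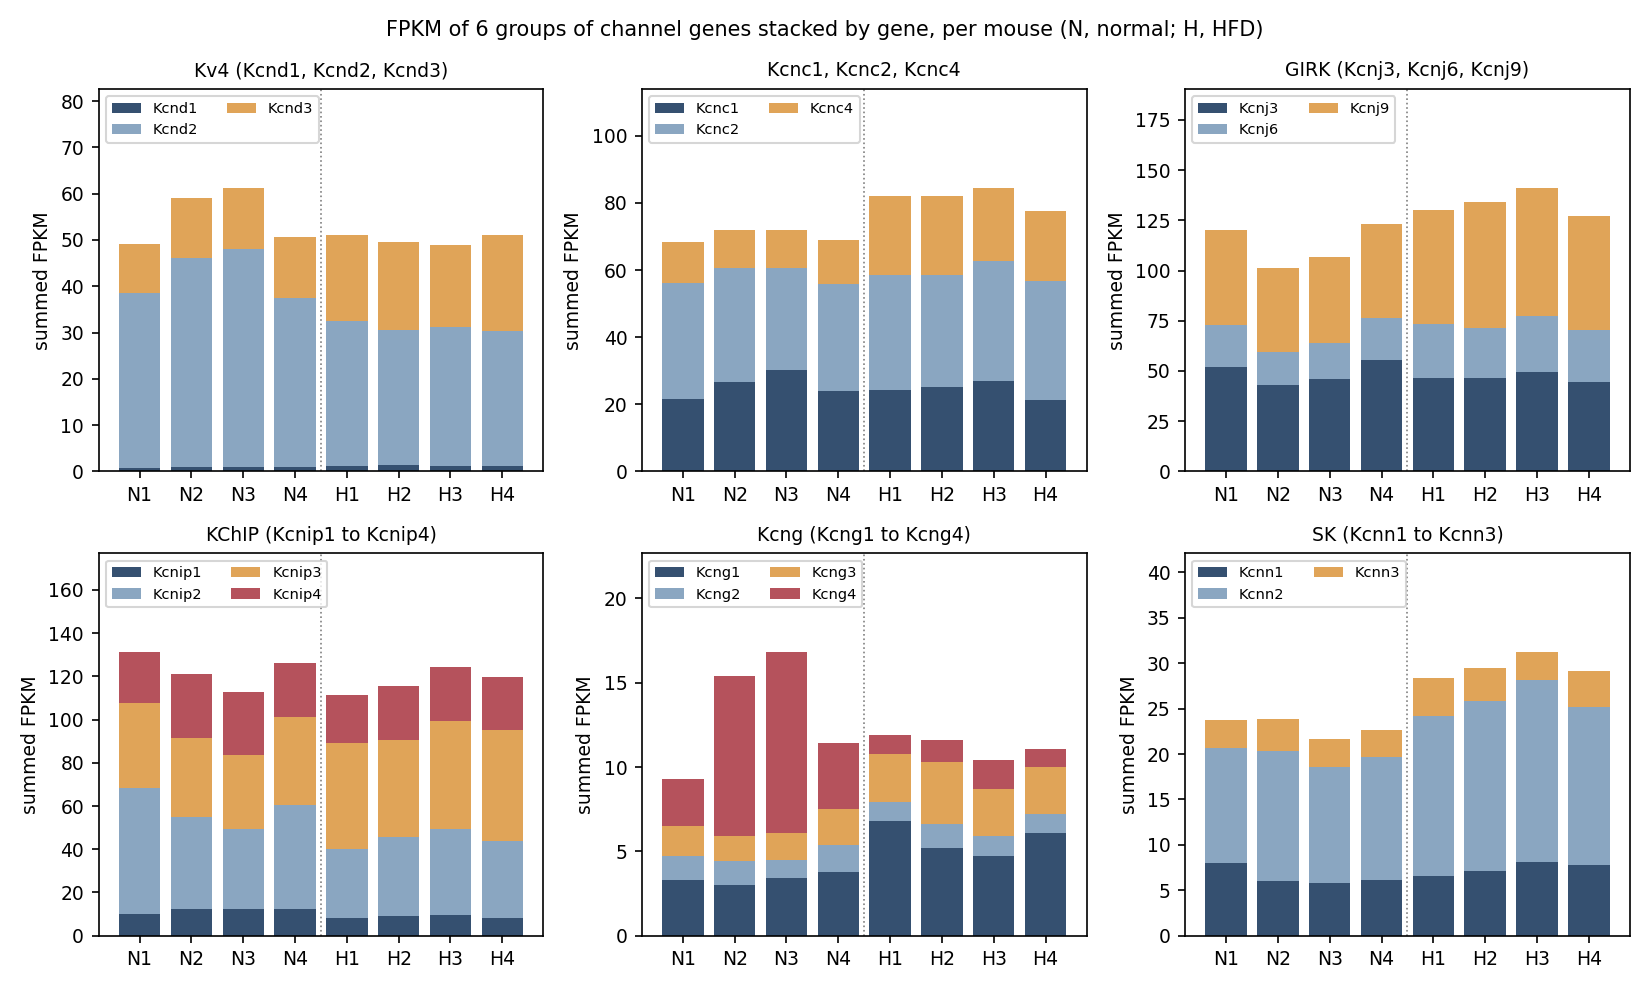
Summed FPKM of 6 groups of channel genes in each mouse (N, normal, H, HFD), stacked by gene, with a dotted line between the diets. Kcnd3, Kcnc4, Kcnj9 and Kcnip3 take a larger part of their bars in the 4 HFD mice, and Kcng4 is tallest in normal mice 2 and 3 (9.5 and 10.7).

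Kv2 channels carry much of the sustained (delayed rectifier) current of cortical pyramidal neurons. Kcnb2 was at 8.5, 5.7, 6.4 and 9.9 in normal mice and at 9.6 to 10.7 in HFD mice, with a log2FC of 0.44 (SE 0.15, adjusted p = 0.0487). Normal mouse 4 lay within the HFD range for Kcnb2, and the call was lost when normal mouse 2 or 3 or any HFD mouse was left out (adjusted p up to 0.116).

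In the Kv1 family, whose members act at axons and their terminals, Kcna5 was the lowest expressed gene and the gene with the largest change. Kcna5 (chromosome 6, 126532551 to 126535412, minus strand) was at 1.8, 1.9, 1.7 and 1.9 in normal mice and at 1.1, 0.6, 0.8 and 0.8 in HFD mice. The diets did not overlap, although the values are low against the rounding of 0.1. Its log2FC was -1.08 (SE 0.18, adjusted p = 0.00241 from limma), which is 2.12-fold lower. Kcna3 rose from 6.2 to 8.6 in normal mice to 8.5 to 9.9 in HFD mice (log2FC 0.40, adjusted p = 0.0172), and the groups overlapped at normal mouse 4. The abundant Kcna1 and Kcna2, which form channels of myelinated axons, did not pass the test. Kcna1 was 34.9 ± 1.64 and 29.6 ± 4.91, and Kcna2 was 36.2 ± 1.23 and 36.2 ± 3.55, in normal and HFD mice (SD, n = 4).

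Kcnq3, a Kv7 subunit of the M current that dampens repeated firing, was 16.0 ± 2.48 and 18.5 ± 0.943 (SD, n = 4) and did not pass the test. Neither did Kcna4, Kcna6, Kcnq5 or the ether-a-go-go family genes Kcnh1, Kcnh2, Kcnh3, Kcnh4, Kcnh5 and Kcnh7. Over the 16 pore-forming genes not past the threshold the log2 fold changes ran from -0.25 to 0.52. Of these Kcnh3 had the lowest adjusted p, 0.0696, with 30.9 ± 8.83 in normal and 42.0 ± 5.04 in HFD mice.

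Of the 9 silent subunits 5 changed, with 4 higher and 1 lower. These subunits open only in complexes with Kv2 subunits. Kcng4 (chromosome 8, 119623854 to 119635680, minus strand) had the largest change of the channel genes. Its FPKM was 2.8, 9.5, 10.7 and 3.9 in normal mice and 1.1, 1.3, 1.7 and 1.1 in HFD mice. No values overlapped, but normal mice 2 and 3 were far above normal mice 1 and 4. The log2FC was -2.09 (SE 0.39, adjusted p = 0.00428 from limma), and it was -1.30 when normal mice 2 and 3 were left out and -2.88 when normal mice 1 and 4 were left out. Kcng4 and the cerebellar marker sum ranked the 4 normal mice in the same order, highest in mouse 3, followed by mice 2, 4 and 1.

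Kcng1 and Kcng3 changed the other way. Kcng1 (chromosome 2, 168260117 to 168281736, minus strand) was at 3.3, 3.0, 3.4 and 3.8 in normal mice and at 6.8, 5.2, 4.7 and 6.1 in HFD mice, a log2FC of 0.73 (SE 0.12, adjusted p = 0.00278). Kcng3 (chromosome 17, 83585957 to 83631895, minus strand) was at 1.8, 1.5, 1.6 and 2.1 in normal mice and at 2.9, 3.7, 2.8 and 2.8 in HFD mice, a log2FC of 0.77 (SE 0.14, adjusted p = 0.00351). Neither gene overlapped between the diets. The share of Kcng4 in the summed Kcng FPKM was 30.1% to 63.7% in normal and 9.24% to 16.3% in HFD mice, while that of Kcng1 was 19.5% to 35.5% and 44.8% to 57.1%. Kcng2 remained at a low level, 1.38 ± 0.206 and 1.2 ± 0.141 (SD, n = 4), and did not pass the test.

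Kcnf1, a silent subunit on chromosome 12 (17172100 to 17176888, minus strand), was the most abundant of its class. It was at 29.6, 23.3, 21.3 and 34.6 in normal mice and at 38.2, 40.6, 40.2 and 40.4 in HFD mice. The groups did not overlap, and the log2FC of 0.58 (SE 0.13, adjusted p = 0.00989) fell just under the minimum change. Kcns3 rose from 2.9 to 3.4 in normal to 3.8 to 4.2 in HFD mice (log2FC 0.36, adjusted p = 0.0096). Kcns1, Kcns2 and Kcnv1 did not pass the test. Kcns2 was at 10.8, 7.7, 8.4 and 11 in normal mice and at 7.9, 7.4, 8.0 and 7.0 in HFD mice (log2FC -0.30, adjusted p = 0.071), so normal mice 2 and 3 lay within or near the HFD range.

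Accessory subunits changed in 4 of 9 genes, 1 higher and 3 lower, with a class median of -0.35. The KChIP genes encode calcium-binding partners of Kv4 channels. Kcnip3, which also encodes the transcriptional repressor DREAM, was at 39.2, 36.6, 33.9 and 40.9 in normal mice and at 48.9, 44.7, 49.8 and 51.2 in HFD mice, a log2FC of 0.37 (SE 0.07, adjusted p = 0.00367). Kcnip1 (chromosome 11, 33629339 to 33993152, minus strand) was at 10, 12.4, 12.5 and 12.4 in normal mice and at 8.3, 9.0, 9.5 and 8.1 in HFD mice, a log2FC of -0.43 (SE 0.09, adjusted p = 0.0056). In both genes the diets did not overlap. Kcnip2 was at 58.5, 42.6, 37.0 and 48.0 in normal mice and at 32.0, 36.8, 40.0 and 35.7 in HFD mice, with an overlap at normal mouse 3 and a log2FC of -0.35 (adjusted p = 0.0602). Kcnip4 was 26.9 ± 3.14 and 24.2 ± 1.34 (SD, n = 4) and did not pass the test. The summed KChIP FPKM overlapped (112.9 to 131.1 and 111.4 to 124.2), and the share of Kcnip3 in it was 29.9% to 32.4% in normal and 38.7% to 43.9% in HFD mice.

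The Kcnab genes encode cytoplasmic beta subunits of Kv1 channels. Kcnab1 (chromosome 3, 65109384 to 65378223, plus strand) was at 43.8, 44.0, 43.5 and 32.8 in normal mice and at 32.1, 30.8, 30.9 and 28.7 in HFD mice. Normal mouse 4 was far below the other normal mice and just above the HFD range. The log2FC was -0.41 (SE 0.09, adjusted p = 0.00949). Kcnab2 (chromosome 4, 152390742 to 152477871, minus strand), the most abundant channel gene, was at 117.7, 103.3, 92.1 and 116.5 in normal mice and at 125.2, 110.2, 127.4 and 106.3 in HFD mice (log2FC 0.13, adjusted p = 0.294). Kcnab2 overlapped widely between the diets, as did Kcnab3 (19.3 ± 1.91 and 18.3 ± 4.97, SD, n = 4).

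Kcne genes encode small single-span partners of voltage-gated channels. Kcne1l (chromosome X, 142304752 to 142306294, minus strand) was at 3.0, 3.6, 3.6 and 2.0 in normal mice and at 2.2, 2.2, 1.8 and 1.8 in HFD mice, with an overlap at normal mouse 4. Its log2FC was -0.56 (SE 0.18, adjusted p = 0.0426), and the call was kept only without normal mouse 4, with an adjusted p up to 0.111 when another mouse was left out. Kcne2, which is abundant in choroid plexus epithelium, was at 2.2, 2.7, 3.0 and 1.2 in normal mice and at 0.4, 0.2, 0.3 and 3.3 in HFD mice. HFD mouse 4 had the highest value of the 8 mice, and it also had the highest choroid plexus sum. The log2FC of Kcne2 was -1.75 (SE 0.68, adjusted p = 0.0734), and without that mouse it was -2.53 (SE 0.33, adjusted p = 0.00259).

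**Figure D3:**
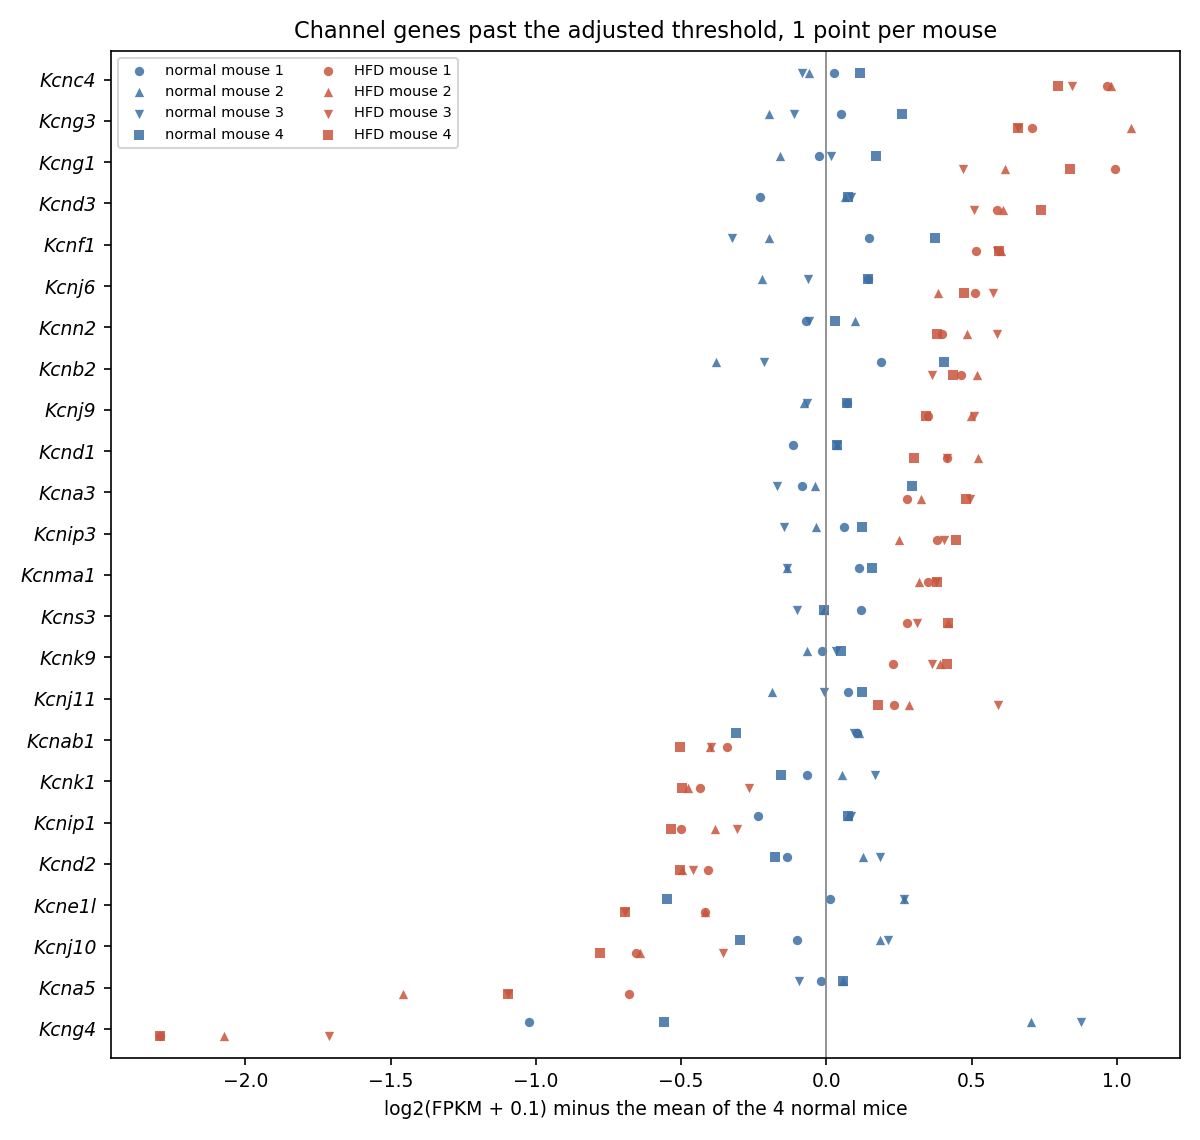
Log2(FPKM + 0.1) of each mouse minus the mean of the 4 normal mice, for 24 channel genes past the adjusted threshold, with 1 marker shape per mouse number, blue for normal and red for HFD. The diets are separate in 21 of these genes, and normal mice 2 and 3 (triangles) stand apart from normal mice 1 and 4 in Kcng4, Kcnf1 and Kcnj10.

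Inward rectifiers changed in 4 of 9 genes, with 3 higher and 1 lower. The GIRK genes encode the channels that G protein coupled receptors open. Kcnj9 (chromosome 1, 172320501 to 172329318, minus strand) was at 46.9, 42.3, 42.6 and 46.8 in normal mice and at 56.9, 63.0, 63.5 and 56.6 in HFD mice, a log2FC of 0.43 (SE 0.06, adjusted p = 0.00132). Kcnj6 (chromosome 16, 94748636 to 94997701, minus strand) was at 20.9, 16.2, 18.1 and 20.9 in normal mice and at 27.0, 24.7, 28.2 and 26.3 in HFD mice, a log2FC of 0.49 (SE 0.09, adjusted p = 0.00334). Both genes were higher in every HFD mouse than in any normal mouse. Kcnj3, the common partner in these channels, was 49.1 ± 5.64 and 46.6 ± 2.06 (SD, n = 4) and did not pass the test. The share of Kcnj3 in the summed GIRK FPKM was 42.4% to 45.0% in normal and 34.6% to 35.6% in HFD mice.

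Kcnj10 (chromosome 1, 172341210 to 172374085, plus strand), the glial channel that takes up potassium released by neurons, was at 14.0, 17.1, 17.4 and 12.2 in normal mice and at 9.5, 9.6, 11.7 and 8.7 in HFD mice. The groups did not overlap, although normal mouse 4 was near HFD mouse 3. Its log2FC was -0.61 (SE 0.13, adjusted p = 0.00665 from limma). The oligodendrocyte sum was also lower in HFD. The astrocyte sum overlapped between the diets, but its markers differed. By limma Aqp4 (log2FC -0.88, adjusted p = 0.00348) and Gfap (-0.39, 0.0265) were lower in HFD, and Slc1a2 was higher (0.25, 0.0394). The other astrocyte markers did not pass the test. The part of these markers in the Kcnj10 result was not tested. Kcnj16, the partner of Kcnj10 in glia, was 6.22 ± 0.718 and 6.10 ± 0.744 (SD, n = 4) and did not pass the test.

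Kcnj11, the pore of the ATP-sensitive channel that links metabolism to excitability, was at 14.5, 12.1, 13.7 and 15.0 in normal mice and at 16.2, 16.8, 20.8 and 15.6 in HFD mice. The diets did not overlap, and the log2FC of 0.32 (SE 0.10, adjusted p = 0.033) lost its call without normal mouse 2 or 3 or HFD mouse 2 or 3 (adjusted p up to 0.0851). Kcnj4 (chromosome 15, 79483714 to 79505241, minus strand), a Kir2 gene and the most abundant inward rectifier, was at 65.4, 45.0, 44.8 and 69.2 in normal mice and at 63.9, 62.4, 64.8 and 62.3 in HFD mice. The HFD mice lay between the pairs of normal mice, and the log2FC was 0.20 (adjusted p = 0.278). Kcnj12, another Kir2 gene, showed the opposite order in normal mice, 5.5, 10.6, 13.7 and 7.0, against 6.7, 6.4, 6.4 and 5.4 in HFD mice (log2FC -0.47, adjusted p = 0.158). Kcnj2 was 5.67 ± 0.776 and 5.42 ± 0.377 (SD, n = 4) and did not pass the test.

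Of the 9 K2P genes, which encode background leak channels, 1 was higher and 1 was lower. Kcnk1 (chromosome 8, 125995170 to 126030685, plus strand) was at 59.6, 64.8, 70.2 and 56.1 in normal mice and at 46.2, 44.9, 51.9 and 44.2 in HFD mice, a log2FC of -0.42 (SE 0.08, adjusted p = 0.00402). Kcnk9 (chromosome 15, 72501089 to 72546340, minus strand), an acid-sensitive member, was at 8.5, 8.2, 8.8 and 8.9 in normal mice and at 10.1, 11.3, 11.1 and 11.5 in HFD mice, a log2FC of 0.35 (SE 0.06, adjusted p = 0.0028). Neither gene overlapped between the diets. Kcnk10 was at 5.0, 10.1, 12.3 and 6.5 in normal mice and at 7.0 to 7.4 in HFD mice (log2FC -0.13, adjusted p = 0.692), so the HFD mice again lay between the pairs of normal mice. Kcnk2, Kcnk3, Kcnk4, Kcnk6, Kcnk12 and Kcnk13 did not pass the test, and with Kcnk10 their log2 fold changes ran from -0.21 to 0.44.

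In the calcium-activated group 2 of 9 genes changed, and both were higher. Kcnn2 (chromosome 18, 45268860 to 45686024, plus strand) encodes a small conductance channel that hyperpolarizes the membrane after spikes. It was at 12.7, 14.3, 12.8 and 13.6 in normal mice and at 17.6, 18.7, 20.1 and 17.4 in HFD mice, a log2FC of 0.46 (SE 0.06, adjusted p = 0.0012). Kcnma1 (chromosome 14, 23289431 to 24014491, minus strand), the pore of the large conductance BK channel, was at 39.3, 33.1, 33.1 and 40.5 in normal mice and at 46.3, 45.4, 47.2 and 47.4 in HFD mice, a log2FC of 0.36 (SE 0.07, adjusted p = 0.00561). The diets did not overlap for either gene, and the HFD values of Kcnma1 were close to each other. Kcnmb4 (chromosome 10, 116417861 to 116473878, minus strand), the neuronal beta subunit of BK, was the most abundant of the group at 47.0, 38.3, 37.7 and 48.2 in normal and 48.1, 44.2, 54.6 and 48.2 in HFD mice (log2FC 0.19, adjusted p = 0.147). Kcnn1, Kcnn3, Kcnmb2, Kcnt1, Kcnt2 and Kcnu1 did not pass the test either, and over these 7 genes the log2 fold changes ran from -0.19 to 0.21. The summed FPKM of Kcnn1, Kcnn2 and Kcnn3 was 21.7 to 23.9 in normal and 28.4 to 31.2 in HFD mice.

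Exons of 7 of the called genes named here overlap those of another gene in the GENCODE M21 annotation. They are Kcnd3, Kcnab1, Kcnj6, Kcnj9, Kcnk1, Kcnn2 and Kcnma1, each with a gene on the opposite strand. The libraries were stranded, but no source used here says whether the quantification took the strand into account, so these values are uncertain to that extent.

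Genes outside the Kcn symbols that encode partners of these channels were taken from a list of 15, of which 13 were analysed here. Of these 4 were higher and 2 were lower in HFD, where 16.5% and 16.8% of all mRNAs tested were, and the difference in share was not tested. Amigo1, a membrane partner of Kv2 channels, was 17.3 ± 1.41 in normal and 21.8 ± 2.44 in HFD mice (log2FC 0.33, adjusted p = 0.0205 from limma), with an overlap between normal mouse 4 at 19.3 and HFD mouse 4 at 18.3. Abcc8, the sulfonylurea receptor that completes the channel of Kcnj11, was at 6.9, 7.0, 7.5 and 7.1 in normal and 8.5, 9.2, 9.8 and 7.7 in HFD mice (0.30 on the log2 scale, adjusted p = 0.0183). Both genes of that channel were thus higher in every HFD mouse than in any normal mouse. Ank3, the ankyrin that anchors Kv7 channels at the axon initial segment, was 59.3 ± 3.82 and 69.8 ± 1.45 (0.24, adjusted p = 0.00816). Dpp10, a Kv4 partner, was at 45.4, 43.9, 43.8 and 48.7 and at 48.7, 55.7, 49.2 and 55.5, so the diets met at 48.7 (0.20, adjusted p = 0.0318). Vapa, which holds Kv2 clusters at the endoplasmic reticulum, was 72.5 ± 0.556 and 61.7 ± 0.480 (-0.23, adjusted p = 0.00158). Cntnap2, which clusters Kv1 channels beside the node of Ranvier, was 22.4 ± 1.07 and 20 ± 0.535 (-0.16, adjusted p = 0.0309).

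Normal mice 2 and 3, which had the largest cerebellar sums, lay on the same side of normal mice 1 and 4 in many channel genes. They were both below mice 1 and 4 in 33 of 70 channel genes (47.1%) and both above in 18 (25.7%), where the corresponding shares of all mRNAs tested were 27.0% and 27.5%. Of the 18 genes higher in HFD 11 were below and 0 above in these mice, and of the 8 genes lower in HFD 5 were above and 0 below. The same order was common among called mRNAs in general, of which 54.9% of those higher in HFD were below (8.00% above) and 46.9% of those lower were above (10.2% below). In these 16 channel genes normal mice 2 and 3 lay farther from the HFD mice than normal mice 1 and 4 did, which follows from the order and the direction of the call. Normal mice 2 and 3 differed from 1 and 4 in more than cerebellar markers. They also had the largest thalamic, oligodendrocyte, interneuron and astrocyte sums of the normal mice, and the smallest cortical projection neuron sums. Single interneuron and astrocyte markers did not all follow their sums. Pvalb, Gad2 and Slc32a1 were higher in normal mice 2 and 3 than in 1 and 4, Sst, Vip and Lhx6 were lower, and Gad1 was mixed. Of the astrocyte markers Slc1a2 and Aldh1l1 were lower in mice 2 and 3, and the others were higher. Which of these sums or markers goes with the order of the channel genes was not tested.

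When normal mice 2 and 3 were left out, 21 channel genes were called (19.6% of mRNAs), of which 18 were among the 26. Among those lost were Kcna3, Kcnab1, Kcnb2, Kcnd1, Kcne1l, Kcnj11 and Kcns3. Gained in that fit, and not called with all 8 mice, were Kcnip2, Kcnj3 and Kcns2. With the mean cerebellar marker level on the FPKM scale as a covariate, 20 were called (17.7% of mRNAs), of which 15 were among the 26. The genes gained were Kcnip2, Kcns2, Kcnk10, Kcnk3 and Kcnt2. With the covariate on the log2 scale 5 were called (2.34% of mRNAs), of which Kcnc4 and Kcnd3 were among the 26. The others were Kcnip2 (-0.86, adjusted p = 0.0216), Kcns2 (-0.73, 0.0424) and Kcnk10 (0.95, 0.0179). On both scales the covariate was higher in all normal mice than in all HFD mice. On the FPKM scale it was 0.22 in normal mouse 1 and at most 0.20 in HFD mice. Over the 26 genes the fit with the log2 covariate had a larger median standard error, 0.15 against 0.090 without the covariate. Its median size of the log2FC was smaller, 0.27 against 0.45. The median size was 0.32 with the FPKM covariate and 0.32 without normal mice 2 and 3. Without normal mice 1 and 4 it was 0.53, and 41 channel genes of 69 tested were called (39.2% of mRNAs), of which 25 were among the 26. Kcnc4 was at 0.77 to 0.97 and Kcnd3 at 0.53 to 0.88 on the log2 scale over these 4 fits, and both passed the adjusted threshold in each. For 3 genes the values are given without normal mice 2 and 3, with the FPKM covariate and with the log2 covariate, in that order, with limma's adjusted p. Kcnd2 was at -0.31 (0.0076), -0.28 (0.0124) and -0.18 (0.353). Kcnj10 was at -0.41 (0.0447), -0.39 (0.0664) and -0.31 (0.42). Kcng4 was at -1.30 (0.0086), -1.13 (0.00905) and -0.41 (0.521).

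**Figure D4:**
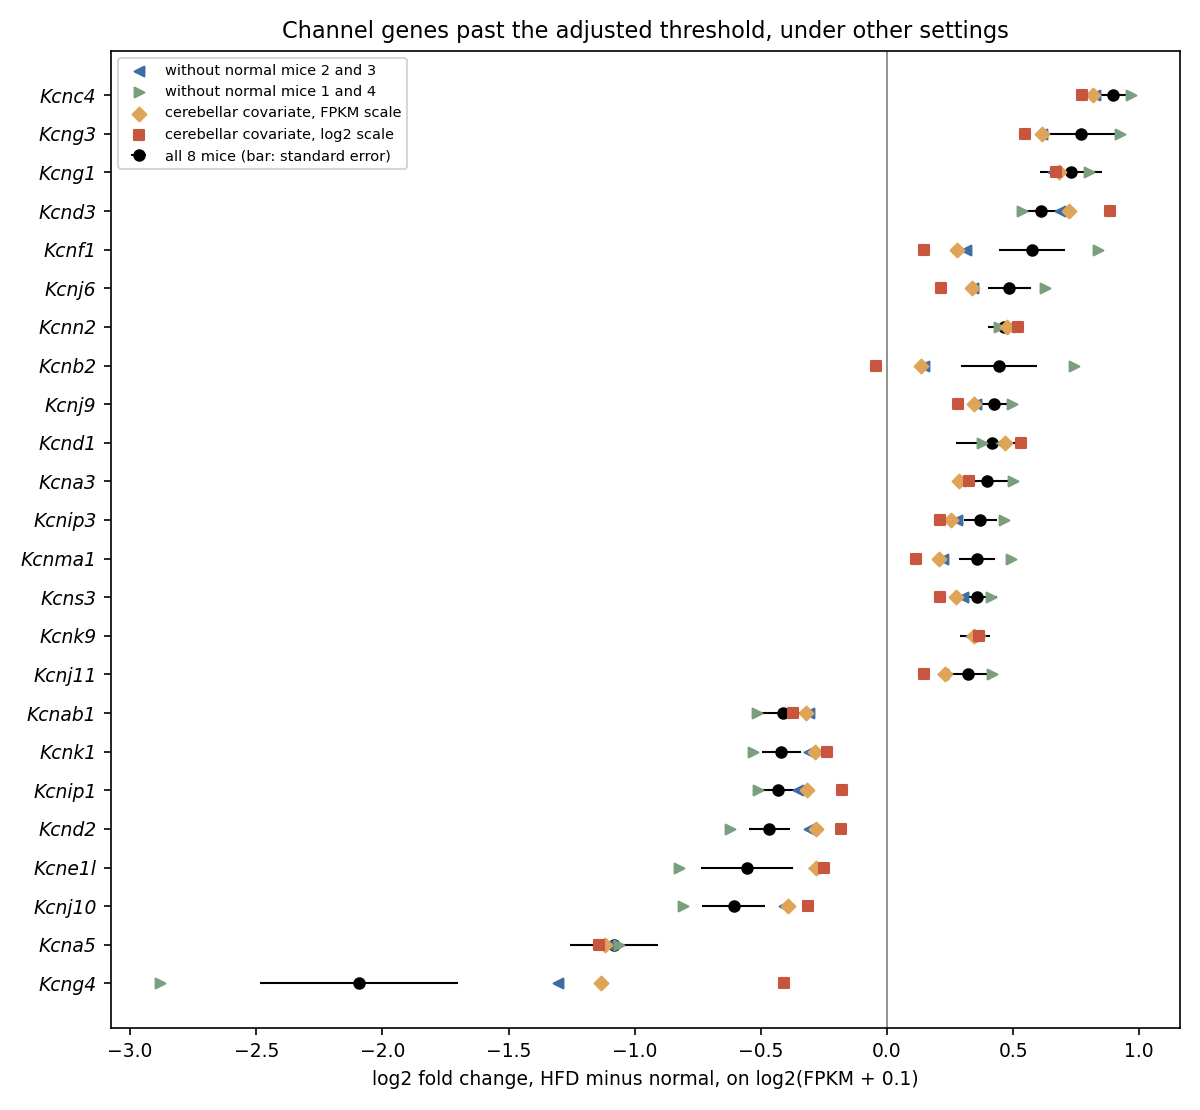
Log2 fold change (HFD minus normal, on log2(FPKM + 0.1)) of 24 called channel genes in all 8 mice (black, with standard error), without normal mice 2 and 3, without normal mice 1 and 4, and with a cerebellar covariate on either scale. Kcnn2, Kcnk9, Kcna5, Kcng1 and Kcnd1 stay within 1 standard error of their value over 8 mice, but none of them was called with the log2 covariate. Kcng4 runs from -2.88 to -0.41 and Kcnb2 crosses 0.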

How the data were processed

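rRNA-depleted total RNA of the cortex of 8 mice was sequenced. The deposited FPKM values were made by the authors with Cuffnorm, using GENCODE M17 (GRCm38.p6), after FastQC, trimming with Trimmomatic and alignment to mm10 with STAR, with tool versions not given in the sources used here. FPKM is scaled by depth and length, so the reads per mouse are unknown and no counting interval can be given. FPKM summed to between 562431 and 639142 in each mouse. All 8 sample columns were used.

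The deposited values were analysed as log2(FPKM + 0.1) with limma 3.58.1 in R 4.3.3 (variance trend, two-sided, Benjamini-Hochberg over the 13982 genes whose mean FPKM was 1 or more and that had no value of 0), and tabulated and plotted with Python 3.11.15, pandas 2.3.3, numpy 2.4.6 and matplotlib 3.10.9. The procedure was tried on data simulated with independent noise for each gene. Of 100 genes changed 2-fold 88 were called, of 100 changed 1.5-fold 74 were called, and 10 unchanged genes were called. Differences shared by many genes, such as those between normal mice 2 and 3 and normal mice 1 and 4, were not simulated. The minimum change was 50%. Replicates are separate mice, and the authors' second quantification with Salmon and edgeR was not used here.

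The channel genes, the 8 marker lists and the partner list were chosen with earlier results of these data known. Named by rule were channel genes past the adjusted threshold and minimum change, the 3 largest called changes and the highest mean of each class, and called partners. Further channel genes are given, among them Kcne2, Kcnj12, Kcnk10, Kcnip2 and Kcns2, named after their values were seen. The results of 4 channel genes are not reported here singly, though class counts and medians include them. Positions are from GENCODE M21 on GRCm38. Drd1, Barhl1, Pcp2, Lhx9, Lrrc26 and Lrrc52 were not analysed here.

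Alternatives were an added constant of 1, a mean FPKM of at least 5, no filter, the replicate number as a block, quantile normalization, median-ratio rescaling, a fit without the variance trend, a cerebellar marker covariate and each mouse left out. A covariate on the FPKM scale and the removal of normal mice 2 and 3 or 1 and 4 were added after seeing the data.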

Additional observations from a re-analysis of the deposited data

Results flagged for a closer look

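In 12 of 132 groups (66 genes in each diet) the highest or lowest mouse stood apart from the other 3 by Dixon's criterion for 4 samples, where chance flags about 1 in 20 groups of untied values. Rounding to 0.1 leaves ties, so that rate does not hold for genes of low FPKM such as Kcnd1. Among the pore-forming subunits these were Kcnd3 in normal mouse 1 (10.6 FPKM, others 13.0 to 13.2), Kcnd1 in normal mouse 1 (0.8, others 0.9) and Kcna6 in normal mouse 4 (18.2, others 19.8 to 19.9). Of the silent subunits, Kcng3 stood apart in HFD mouse 2 (3.7, others 2.8 to 2.9) and Kcnf1 in HFD mouse 1 (38.2, others 40.2 to 40.6). The accessory subunits had Kcnab3 in normal mouse 3 (16.5, others 20 to 20.7), Kcnip4 in HFD mouse 1 (22.2, others 24.7 to 25.0), Kcnab1 in normal mouse 4 (32.8, others 43.5 to 44.0), Kcnip1 in normal mouse 1 (10, others 12.4 to 12.5) and Kcne2 in HFD mouse 4 (3.3, others 0.2 to 0.4). In the calcium-activated group, Kcnn3 stood apart in normal mouse 2 (3.6, others 3.0 to 3.1) and Kcnn1 in normal mouse 1 (8.0, others 5.8 to 6.1).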

How the results depend on the processing

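Called channel genes numbered 24 to 26 with a constant of 1, no filter, either rescaling or no variance trend. With a mean FPKM of at least 5 there were 19 of 51 tested, 5 of them lower. The replicate numbers do not pair the mice (correlations of deviations from -0.109 to -0.0275), and with a replicate block 23 were called, without Kcnb2, Kcnd1 and Kcnj11. With each mouse left out, 22 to 28 were called, 15 to 20 higher, 7 to 9 lower and 6 to 11 past the minimum change, and 22 of the 26 were called in all 8 fits. The count past the minimum change was 7, and 4 with a constant of 1, 3 at a mean FPKM of at least 5, 11 without normal mouse 4 and 17 without normal mice 1 and 4. Leaving out normal mice 1 and 4 gave 41 called, 30 higher, whereas the log2 cerebellar covariate gave 5, with 3 higher and 2 lower. Of the 70 channel genes, 26 turned their direction with the log2 covariate, 1 of which was called in the comparison of all 8 mice. The direction turned for 19 on the FPKM scale, 16 without normal mice 2 and 3, 6 without normal mice 1 and 4 and up to 9 with 1 mouse left out. Of these, 0 were called in the comparison of all 8 mice. Among those whose own log2FC is given, with the log2 covariate Kcnb2 was at -0.043, Kcnmb4 -0.12, Kcnj12 0.56, Kcnab2 -0.17, Kcnj4 -0.34 and Kcnk10 0.95. On the FPKM scale Kcnj12 was at 0.14, Kcnab2 -0.043, Kcnj4 -0.13 and Kcnk10 0.48, and without normal mice 2 and 3 Kcnab2 was at -0.00225, Kcnj4 -0.087 and Kcnk10 0.35. With each mouse left out Kcnk10 ran from -0.35 to 0.074, the latter without normal mouse 3. Kcnk10 passed limma's adjusted threshold in opposite directions. It was higher in HFD with the log2 covariate (adjusted p = 0.0179) and the FPKM covariate (0.00605), and lower, at -0.61, without normal mice 1 and 4 (0.0013). The cause was not tested. FPKM carries no read depth, so the precision of genes near 1 FPKM, such as Kcna5 and Kcnd1, is limited by the rounding to 0.1.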
